A study of Mus musculus with 14 samples.

Results

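The 4 Hox gene clusters of the mouse were examined in ChIP-seq peak lists from erythroblasts. The members were every protein-coding gene of GRCm38 whose symbol is Hoxa, Hoxb, Hoxc or Hoxd followed by a number. They numbered 39 of 21887 protein-coding genes, with 11 in the Hoxa cluster on chromosome 6, 10 in Hoxb on chromosome 11, 9 in Hoxc on chromosome 15 and 9 in Hoxd on chromosome 2. The genes were short, from 1784 to 44009 bp with a median of 3737 bp. The RefSeq models of Hoxa3, Hoxb3 and Hoxd3 reach across neighbouring Hox genes. Factor peaks were counted in a gene or within 5 kb of it, so the same peak can count for several genes. This happened in Hoxc and at Hoxd8 and Hoxd9.

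Hox genes encode homeodomain transcription factors that give cells their position along the body axis, and the order of the genes on the chromosome follows the order of their expression from head to tail. Polycomb complexes hold the silent clusters in closed chromatin, whereas Trithorax complexes with Kmt2a and the histone methyltransferase Dot1l keep active Hox genes open. In blood, members such as Hoxa9 and Hoxb4 act in stem and progenitor cells, where they bind DNA with the TALE homeodomain partners of the Meis and Pbx families, and Hox expression declines as cells mature.

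The cells were Chd7-/- (KO) and wild-type (WT) G1ER cells, labelled as erythroblasts. The parent line is deficient in its own GATA1 and expresses instead a GATA1 fusion protein that estradiol switches on, in KO and WT cells alike. Chd7 codes for an ATP-dependent chromatin remodeller, and the study's title concerns its interplay with RUNX1 in blood cell differentiation. GATA2 and RUNX1 were immunoprecipitated from 1 library per genotype, and the serine 2 phosphorylated form of RNA polymerase II (S2P, found on transcribed gene bodies) from 2 libraries per genotype that were deposited as 1 peak list. The remaining 6 of the 14 samples were inputs without antibody. The labels mention estradiol only for a differentiation assay at 48 hours, and state neither whether the cells used for ChIP had received it, nor which input went with which list, nor how many clones the KO cells represent.

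Since a target had 1 list for each genotype, the spread between replicates is unknown, and no difference between KO and WT was tested. The KO lists held 80611 GATA2, 35281 RUNX1 and 165206 S2P peaks, and the WT lists 68199, 28952 and 163620. Peak strength is given as the number of fragments at the summit, which the deposited fold enrichment and −log10 p fix together. The smallest number listed was 7 fragments for the factors and 16 for S2P in both genotypes, but peaks were listed by their q over local background, so a site with more fragments than that can still be unlisted, and an unlisted site is not one without signal. Intervals are exact Poisson or Clopper-Pearson 95% intervals and cover counting error only. Of 12 erythroblast marker genes, 11 had S2P coverage in both lists, led by Tfrc (98.6% of the gene in KO, 99.2% in WT) and Kit (93.2% in KO, 95.1% in WT), apart from the short globin gene Hba-a1 at 100% in both. The erythrocyte anion exchanger gene Slc4a1 had none. Of 19 markers of other cell types, 18 had none, and the macrophage receptor gene Csf1r had 10.9% in KO and 11.6% in WT. The Chd7 gene itself had no S2P coverage and no RUNX1 peak in either genotype, and 1 GATA2 peak in KO and 0 in WT, so it gave no check of the genotype labels.

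The clusters also hold miRNA genes, whose mature sequences and seeds are shown because the same seed recurs between clusters. Capitals mark the seed, bases 2 to 8, and the sequences are from RefSeq (GRCm38.p6). The miR-10 seed is shared by Mir10a in Hoxb and Mir10b in Hoxd, and the miR-196 seed by Mir196b in Hoxa, Mir196a-1 in Hoxb and Mir196a-2 in Hoxc. Mir615 lies inside Hoxc5.
mmu-miR-10a-5p: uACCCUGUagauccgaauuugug
mmu-miR-10b-5p: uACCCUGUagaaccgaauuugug
mmu-miR-196a-5p: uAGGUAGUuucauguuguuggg
mmu-miR-196b-5p: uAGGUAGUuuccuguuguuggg
mmu-miR-615-3p: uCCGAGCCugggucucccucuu

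Promoters are shown for 3 of the genes that had a peak within 5 kb of their start: Hoxc4 (chr15:103034145-103034394), Hoxd3 (chr2:74711743-74711992) and Hoxd8 (chr2:74704365-74704614). Each is the 250 bases before the start in the RefSeq promoter table (GRCm38.p6, plus strand), which held 24 starts of 22 Hox genes. Capitals mark matches on either strand to a GATA motif or a RUNX motif. The GATA motif was read as AGATAA, with the variant spelling AGATAG, and likewise as TGATAA, with the variant spelling TGATAG. The RUNX motif was read as TGTGGT, with the variant spelling TGCGGT.
Hoxc4: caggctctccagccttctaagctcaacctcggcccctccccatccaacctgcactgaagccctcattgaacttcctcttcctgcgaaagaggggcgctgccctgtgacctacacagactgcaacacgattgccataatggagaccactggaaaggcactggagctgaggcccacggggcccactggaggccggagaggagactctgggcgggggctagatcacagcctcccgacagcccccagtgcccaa
Hoxd3: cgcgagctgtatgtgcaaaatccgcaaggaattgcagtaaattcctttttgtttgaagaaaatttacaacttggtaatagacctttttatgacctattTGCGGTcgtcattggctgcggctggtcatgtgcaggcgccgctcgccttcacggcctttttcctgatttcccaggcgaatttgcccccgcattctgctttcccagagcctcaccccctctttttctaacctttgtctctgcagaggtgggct
Hoxd8: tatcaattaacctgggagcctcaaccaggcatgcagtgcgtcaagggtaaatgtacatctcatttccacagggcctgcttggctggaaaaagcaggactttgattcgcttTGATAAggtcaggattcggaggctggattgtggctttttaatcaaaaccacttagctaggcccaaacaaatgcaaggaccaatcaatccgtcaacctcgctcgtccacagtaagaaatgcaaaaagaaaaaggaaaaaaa
Hoxc4 held neither motif, Hoxd3 held TGCGGT and Hoxd8 held TGATAA. In the 300 bases around these starts, Hoxc4 had S2P alone, in both genotypes, and Hoxd3 and Hoxd8 had no peak of any list. Over windows of 300 bases around the start, 7 of the 24 Hox promoters held a GATA motif and 3 a RUNX motif, against 29.8% and 22.4% of all 32851 promoters. Hoxd9, which also had a peak within 5 kb of its start but is not shown, held neither motif in its window.

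Most Hox genes were bare in all lists. Of the 39 genes, 31 had neither a GATA2 or RUNX1 peak in the gene or within 5 kb of it nor any S2P coverage, against 29.3% of all protein-coding genes and 34.2% of those no longer than the longest Hox gene. They were all 11 Hoxa genes, all 10 Hoxb genes, 4 Hoxc genes (Hoxc10, Hoxc11, Hoxc12 and Hoxc13) and 6 Hoxd genes. The 8 genes with a factor peak were Hoxc4, Hoxc5, Hoxc6, Hoxc8, Hoxc9, Hoxd3, Hoxd8 and Hoxd9, against 69.2% of all protein-coding genes. The 4 genes with S2P coverage, Hoxc4, Hoxc5, Hoxc6 and Hoxc9, were all among them. Of all 21887 protein-coding genes, 15150 had a factor peak, 10311 had S2P coverage in either list and 6423 had neither. Nearly all genes with S2P coverage therefore also had a factor peak, so this overlap is not particular to Hox genes.

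By list, 8 Hox genes had a GATA2 peak in KO, against 61.0% of all genes, and 6 had one in WT, against 56.6%. RUNX1 was present at 5 Hox genes in KO, against 52.7% of all genes, and at the same 5 in WT, against 50.1%. Among genes no longer than the longest Hox gene, the shares were 54.5% and 50.0% for GATA2 and 50.4% and 47.6% for RUNX1, in KO and in WT. The difference between clusters was wide. In the gene or within 5 kb of it, 5 of the 9 Hoxc genes had GATA2 and RUNX1 in both genotypes. Hoxa and Hoxb had 0 of 11 and 0 of 10. Only Hoxc4 and Hoxc6 had summits of both factors inside the gene itself in both genotypes. Hoxc5, Hoxc8 and Hoxc9 reached this count through peaks outside the gene.

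**Figure D1:**
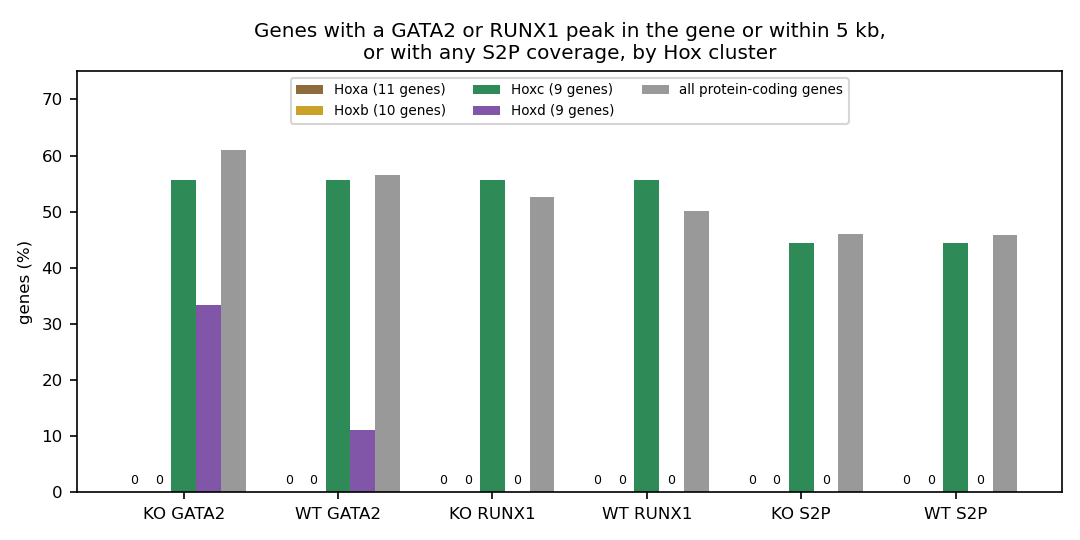
Percentage of genes with a GATA2 or RUNX1 peak in the gene or within 5 kb, or with any S2P coverage, for each of the 6 peak lists, with bars for the 4 Hox clusters and for all protein-coding genes. Hoxa and Hoxb stand at 0 in every list, Hoxd has genes with a GATA2 peak alone, and Hoxc lies near the bar of all genes in every list.

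The Hoxa cluster (chr6:52155367-52260880), whose Hoxa9 and Hoxa10 are known from blood progenitors and leukaemia, had no peak of any list within its span and 5 kb on either side. Its flanks were not empty: the 500 kb on each side together held 27 GATA2, 9 RUNX1 and 112 S2P peaks in KO, and 22, 6 and 98 in WT.

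The Hoxb cluster (chr11:96194316-96368254), which contains Hoxb4, had no peak within 5 kb of a gene. Between Hoxb13 and Hoxb9, the widest gap of the cluster, GATA2 had 3 peaks in KO and 1 in WT. The site in both lists (chr11:96240659-96240822) had 20 fragments in KO (12.2 to 30.9) and 18 in WT (10.7 to 28.4). The other 2 KO peaks had 11 and 12 fragments. These numbers lie below the median of 24 fragments in the KO GATA2 list and 23 in WT, although by −log10 q the shared site ranked above 56.2% of the peaks in KO and 27.5% in WT. No RUNX1 or S2P peak lay in the Hoxb span, although its flanks held 57 RUNX1 and 139 S2P peaks in KO, and 41 and 168 in WT.

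The Hoxd cluster (chr2:74668225-74765142) had GATA2 alone, and no RUNX1 or S2P peak. Inside Hoxd3, which acts in the upper vertebral column, the site chr2:74716092-74716371 had 50 fragments in KO (37.1 to 65.9) and 45 in WT (32.8 to 60.2). It lay 4179 bp after the Hoxd3 start whose promoter is shown above. A second Hoxd3 peak beside it had 26 fragments and was listed in KO alone, in the overlap with the antisense gene Hoxd3os1. A further peak, also in KO alone with 17 fragments (9.90 to 27.2), lay between Hoxd9 and Hoxd8 at position −2220 bp from the Hoxd8 start, outside the 250 bases with the TGATAA match. Hoxd8 and Hoxd9 counted as having a GATA2 peak through this single weak peak.

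**Figure D2:**
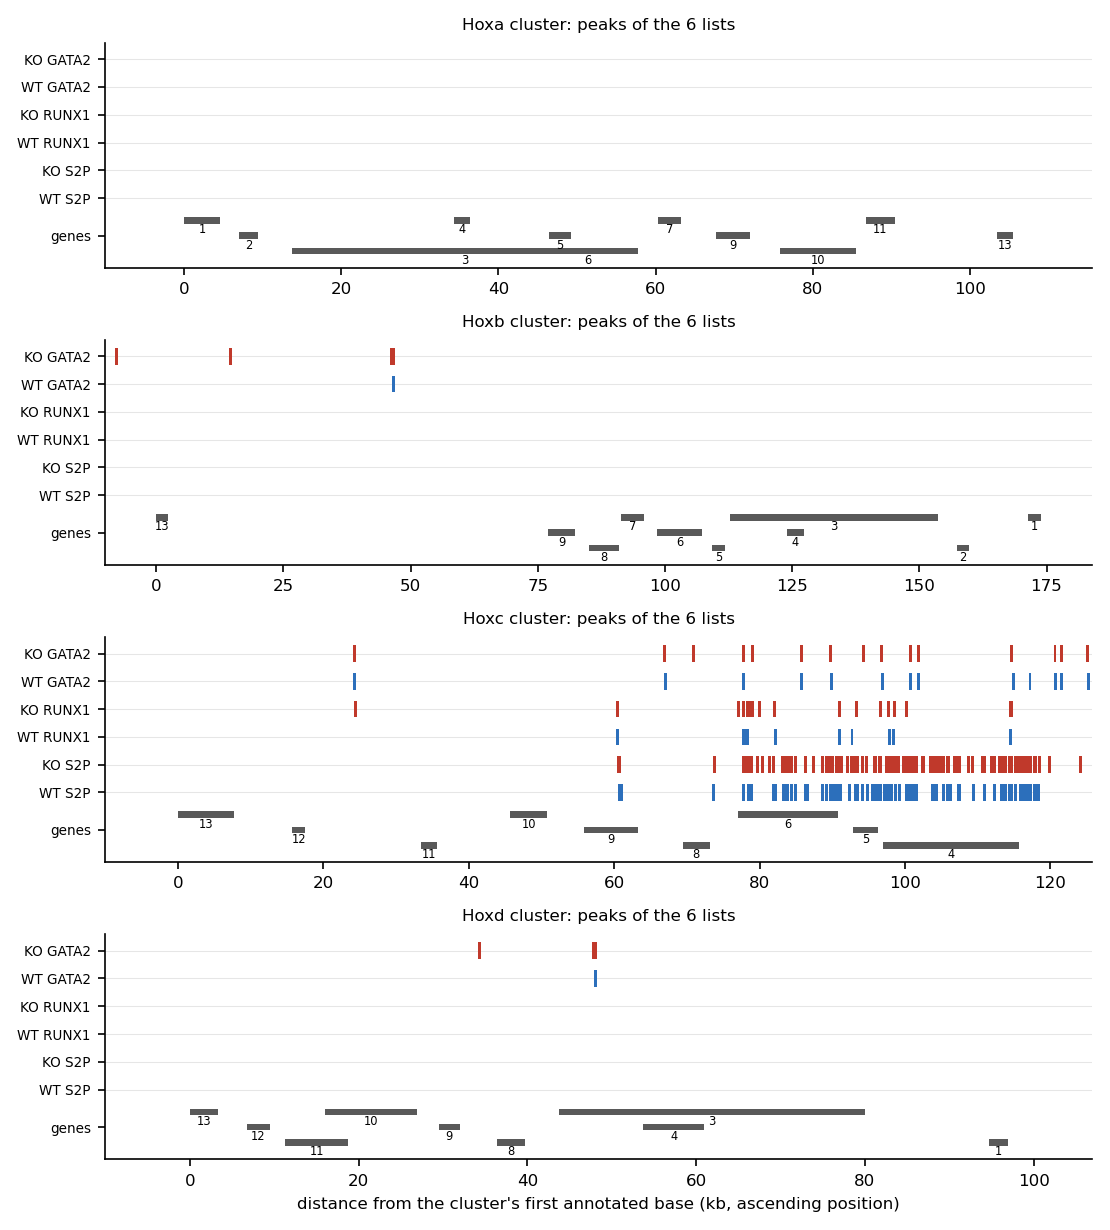
Peaks of the 6 lists over the 4 Hox clusters, as distance in kb from the first annotated base of each cluster, with KO rows in red above the WT rows in blue and gene bodies in grey labelled by their number. The Hoxa panel holds no peak, Hoxb and Hoxd hold a few GATA2 peaks, and the Hoxc peaks crowd over Hoxc6, Hoxc5 and Hoxc4.

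The Hoxc cluster (chr15:102921131-103036856) held nearly all the Hox peaks. Of the GATA2 peaks in Hox genes or within 5 kb, 12 of 15 in KO and 10 of 11 in WT lay there, as did all 13 RUNX1 peaks in KO and all 9 in WT, and all 42 S2P peaks in each list. Over the cluster and 5 kb on either side, GATA2 had 10.3 peaks per 100 kb in KO and 8.75 in WT, against 2.96 and 2.51 over the genome. RUNX1 had 11.1 in KO and 7.16 in WT, against 1.30 and 1.06, and S2P had 33.4 in both, against 6.07 and 6.02. The flanks of Hoxc were also denser than the genome, with 7.6 GATA2, 3.6 RUNX1 and 18.3 S2P peaks per 100 kb in KO, and 7.1, 3.3 and 18.3 in WT.

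Within Hoxc the peaks divided the cluster. In the 38.6 kb from Hoxc6 to Hoxc4, a stretch chosen after its values were seen, GATA2 had 9 peaks in KO and 7 in WT and RUNX1 had 11 in KO and 8 in WT. In the 73.1 kb from Hoxc13 to Hoxc8, GATA2 had 3 peaks in KO and 2 in WT and RUNX1 had 2 in KO and 1 in WT. From Hoxc13 to Hoxc10 the single site lay in Hotair, a long non-coding RNA gene between Hoxc12 and Hoxc11 (chr15:102945233-102945546). It was among the strongest of the cluster, with 114 GATA2 fragments in KO (94.04 to 137) and 89 in WT (71.5 to 110), and a RUNX1 peak of 22 fragments in KO alone. It lay more than 5 kb from any Hox gene, so no gene was counted through it.

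GATA2 was strongest near the first annotated base of Hoxc6, one of the genes that pattern the thoracic region. The site chr15:102998658-102999010 had 137 fragments in KO (115 to 162) and 96 in WT (77.8 to 117), and by −log10 q it ranked above 91.01% of the peaks of the KO list and 86.2% of the WT list. Through its 5 kb window the same peak is also the strongest counted for Hoxc8, which acts in the lower thoracic region and limb nerves. In Hoxc4, a gene also expressed in lymphoid cells, the strongest GATA2 site (chr15:103022827-103023173) had 89 fragments in KO (71.5 to 110) and 69 in WT (53.7 to 87.3). A further Hoxc6 site (chr15:103010732-103011050) had 75 in KO (59.0 to 94.01) and 57 in WT (43.2 to 73.9). The site between Hoxc5 and Hoxc4 (chr15:103017521-103018095) had nearly equal numbers, 40 in KO (28.6 to 54.5) and 41 in WT (29.4 to 55.6).

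The Hoxc GATA2 peaks listed in 1 genotype alone numbered 3 in KO and 1 in WT, and none exceeded 29 fragments. The other 9 sites were listed in both. In KO alone there were 29 fragments in Hoxc8, 24 in Hoxc6 and 24 in Hoxc5. In WT alone there was 1 peak of 17 fragments after the end of Hoxc4. Over all clusters 10 of the 15 KO peaks (66.7%, 38.4 to 88.2) and 10 of the 11 WT peaks (90.9%, 58.7 to 99.8) overlapped a peak of the other genotype, against 68.8% and 81.5% of all GATA2 peaks.

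RUNX1 was strongest beside the main GATA2 site of Hoxc6 and near the first annotated base of Hoxc4. The second Hoxc6 site (chr15:102999091-103000358) had 83 RUNX1 fragments in KO (66.1 to 103) and 78 in WT (61.7 to 97.3), and the first, shared with GATA2, had 69 in KO (53.7 to 87.3) and 44 in WT (32.0 to 59.1). The neighbouring Hoxc4 sites had 49 in KO and 46 in WT, and 53 in KO and 63 in WT. Hoxc9, a thoracic patterning gene, held a RUNX1 site of 31 fragments in KO and 21 in WT. In KO alone there were 5 RUNX1 sites, with 20 to 30 fragments, and in WT alone 1 with 25. Of the 13 KO peaks 8 (61.5%, 31.6 to 86.1), and of the 9 WT peaks 8 (88.9%, 51.8 to 99.7), overlapped a peak of the other genotype, against 69.6% and 86.6% of all RUNX1 peaks.

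A minority of the RUNX1 peaks at Hox genes overlapped GATA2. In KO 4 of the 13 RUNX1 peaks (30.8%, 9.09 to 61.4) overlapped a GATA2 peak, against 52.4% of all RUNX1 peaks, and in WT 1 of 9 did (11.1%, 0.281 to 48.2), against 53.9%. As shares of the GATA2 peaks these are 4 of 15 in KO (26.7%, 7.79 to 55.1) and 1 of 11 in WT (9.09%, 0.230 to 41.3), against 22.5% of all GATA2 peaks in each genotype. The WT overlap was the first Hoxc6 site, which had both factors in both genotypes. Near the end of Hoxc4 the peaks of the factors overlapped in KO and lay side by side in WT. Overlapping peaks of all factor lists were then merged into sites, counted within 5 kb of a Hox gene. Of these, 4 Hoxc sites held both factors, 9 GATA2 alone and 10 RUNX1 alone. The Hotair site lay outside these windows and is not among them.

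**Figure D3:**
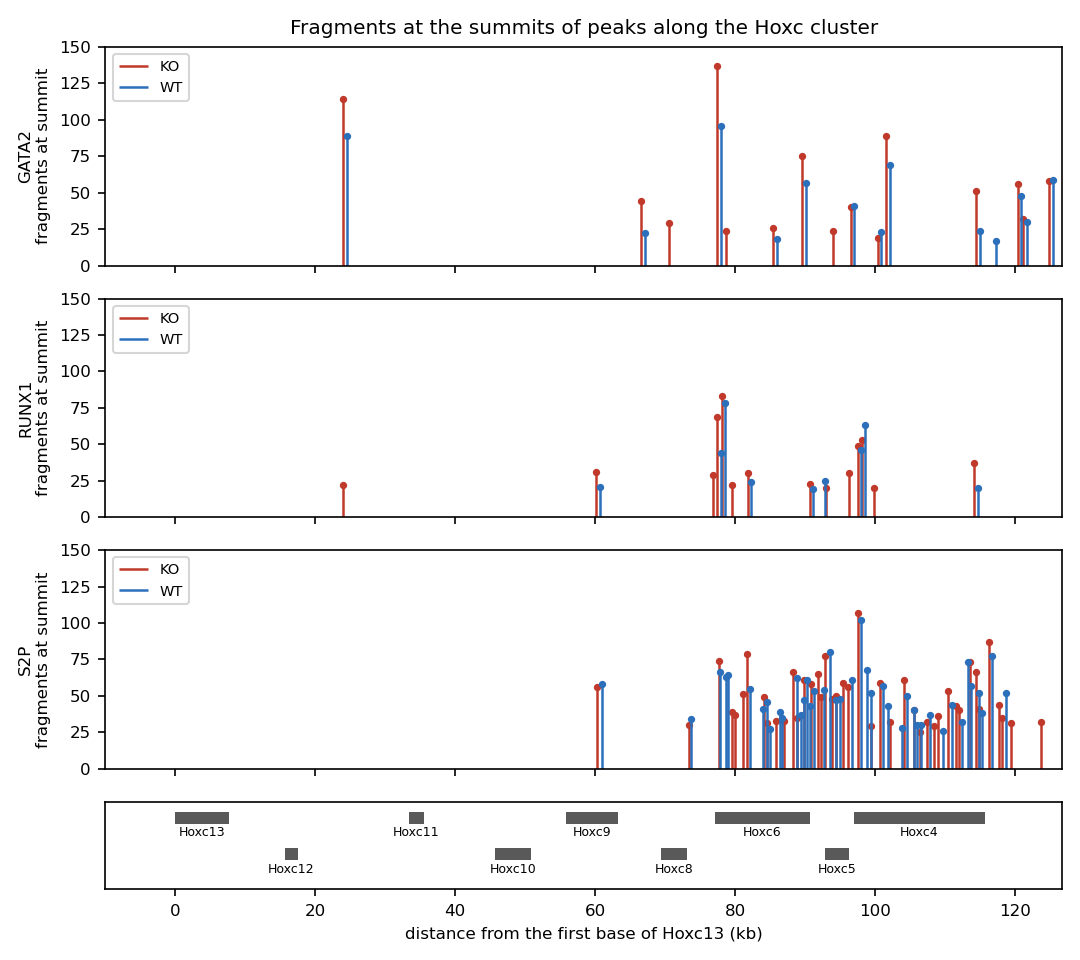
Fragments at the summits of GATA2, RUNX1 and S2P peaks along the Hoxc cluster, as distance in kb from the first base of Hoxc13, with KO in red and WT in blue set 0.5 kb apart for visibility. The tallest GATA2 summits are those of Hoxc6 (137 in KO, 96 in WT) and Hotair (114 in KO, 89 in WT), and S2P summits fill the stretch from Hoxc6 to Hoxc4.

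At sites listed in both genotypes, fragment numbers were compared after division by the lowest local background of each list, a stand-in for library depth. For GATA2 it was 1.57 fragments in KO and 1.48 in WT. The RUNX1 lists had 1.39 in KO and 1.37 in WT, and the S2P lists 7.07 in KO and 7.00 in WT. The median log2 ratio of KO over WT at the 10 GATA2 sites was 0.30, with 8 higher in KO, against a median of 0.11 over all 53508 shared GATA2 peaks, of which 60.8% were higher in KO. Together these sites had 587 fragments in KO and 443 in WT, a log2 ratio of 0.32 (0.14 to 0.50). At the 8 RUNX1 sites the median was 0.27, with 7 higher in KO, against 0.19 and 70.8% over all 23560 shared RUNX1 peaks. By the deposited fold enrichment the median at these RUNX1 sites was 0.038, and no such median was computed over all shared RUNX1 peaks. The 8 RUNX1 sites had 375 fragments in KO and 315 in WT, a log2 ratio of 0.23 (0.01 to 0.45). Peaks listed in both genotypes leave out sites below the limit of either list, so these medians do not describe all Hox sites.

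One site reached a 2-fold difference. Near the end of Hoxc4 (chr15:103035456-103035992), 1452 bp after the Hoxc4 start shown above, GATA2 had 51 fragments in KO (38.0 to 67.1) and 24 in WT (15.4 to 35.7), a log2 ratio of 1.00 (0.28 to 1.77). In the same stretch RUNX1 had 37 in KO (26.1 to 51.0) and 20 in WT (12.2 to 30.9), a log2 ratio of 0.86 (0.04 to 1.73). Between Hoxc9 and Hoxc8 (chr15:102987891-102988261) GATA2 had 44 in KO (32.0 to 59.1) and 22 in WT (13.8 to 33.3), a log2 ratio of 0.91 (0.15 to 1.72). Of all shared peaks, 2.8% of GATA2 and 2.74% of RUNX1 peaks were at least 2-fold higher in KO, and 1.58% and 1.13% at least 2-fold lower. Counting intervals that leave out 0 compare these libraries and not the genotypes.

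**Figure D4:**
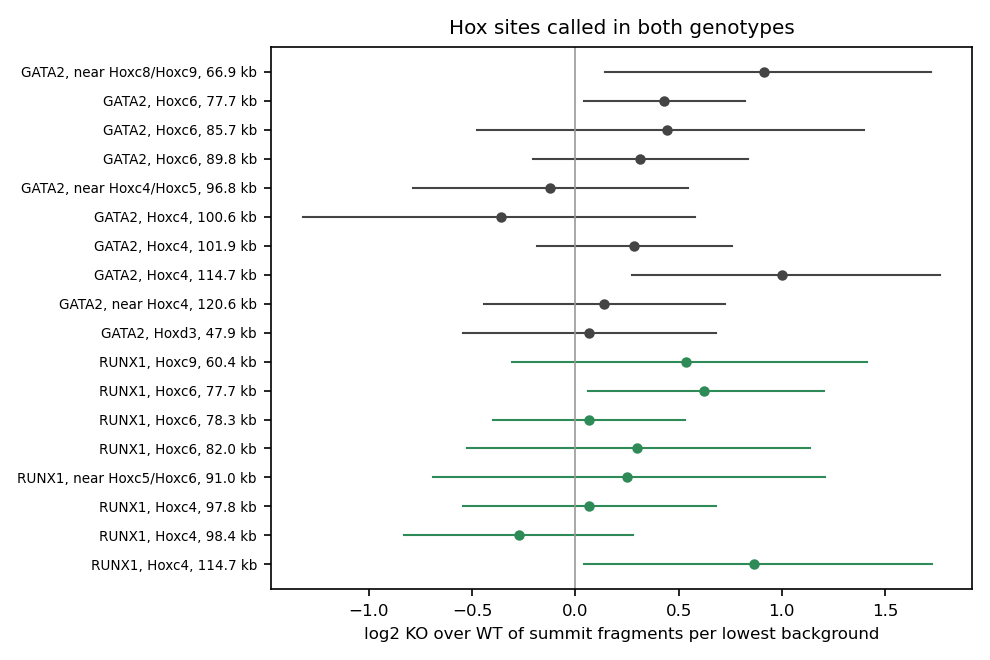
Log2 ratio of KO over WT of summit fragments, each divided by the lowest background of its list, at the Hox sites listed in both genotypes, with 95% counting intervals, GATA2 in grey and RUNX1 in green, labelled by gene and kb from the cluster start. The highest ratios are those at the end of Hoxc4, 1.00 for GATA2 and 0.86 for RUNX1, and 8 of 10 GATA2 and 7 of 8 RUNX1 points lie above 0.

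S2P, read as the share of the gene lying under peaks, was found on 4 Hox genes, all in Hoxc. Any coverage was present at 4 Hox genes in each list, against 46.1% of all genes in KO and 45.8% in WT. At least 50% was covered at 3 Hox genes in KO, against 16.2% of all genes, and at 1 in WT, against 15.8%. Hoxc4 (chr15:103018097-103036856) was covered for 67.8% in KO and 47.6% in WT. Hoxc6 (chr15:102998226-103011882) was covered for 51.0% in KO and 33.9% in WT. Hoxc5 (chr15:103014008-103017429), between them, went the other way, with 56.0% in KO and 67.2% in WT. Hoxc9 (chr15:102977032-102984444) was covered for 8.01% in KO and 9.65% in WT, and Hoxc8, although within 5 kb of strong factor peaks, for 0% in both.

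Differences of this size were uncommon. Among the 10311 genes with S2P coverage in either list, 6.13% were at least 10 points higher in KO, as Hoxc4 (20.2 points) and Hoxc6 (17.1 points) were, and 4.21% at least 10 points lower, as Hoxc5 (−11.2 points) was. Of all these genes 60.1% were higher in KO. Peak strength could be compared at few sites. Of the S2P peaks with a KO summit inside a Hox gene, 14 had a single partner in the other list. Their median log2 ratio of summit fragments was 0.09, against 0.06 over all 68901 peaks with a single partner. Of the 14, 10 were higher in KO, against 58.1% of those 68901 peaks. By the deposited fold enrichment the median of the 14 was 0.27, and no such median was computed over all peaks with a single partner. None of the 14 reached a 2-fold difference, against 0.0566% of all such peaks at least 2-fold higher and 0.00871% at least 2-fold lower in KO. The strongest summit lay in Hoxc4, with 107 fragments in KO and 102 in WT.

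The coverage depended on how strong a peak had to be. With a −log10 q of at least 5, Hoxc4 was covered for 63.9% in KO and 38.0% in WT, Hoxc6 for 37.6% in KO and 24.1% in WT, and Hoxc5 for 36.4% in KO and 58.1% in WT. Hoxc9 kept 9.65% in WT and had no coverage in KO. The order of KO and WT stayed as before at Hoxc4, Hoxc5 and Hoxc6, and only Hoxc4 in KO and Hoxc5 in WT remained above 50%, which is 1 gene in each genotype.

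Dense S2P coverage began near the first annotated base of Hoxc6 and ended past Hoxc4. The stretch from Hoxc6 to Hoxc4 was covered for 61.4% in KO and 44.9% in WT, that from Hoxc13 to Hoxc8 for 0.812% in KO and 0.978% in WT, and that from Hoxc13 to Hoxc10 for 0% in both. In steps of 5 kb from the first base of Hoxc13, the widest difference lay at 100 kb, inside Hoxc4, with 79.9% in KO and 49.2% in WT, while the step at 95 kb had 71.0% in KO and 72.1% in WT. Past Hoxc4 the run of peaks ended at nearly the same place, with last peaks at chr15:103039468-103039683 in KO and chr15:103038733-103039710 in WT. Beyond it KO had 2 further isolated peaks of 236 and 207 bp, with −log10 q of 4.20 and 3.94. The Hoxc4 start shown above lay under an S2P peak in KO (chr15:103033992-103035188), whereas in WT it lay in a gap between a peak that ended just before it (chr15:103034151-103034388) and the next one. The peaks carry no strand and the RefSeq gene table gives no exons, so transcripts that overlap cannot be told apart.

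**Figure D5:**
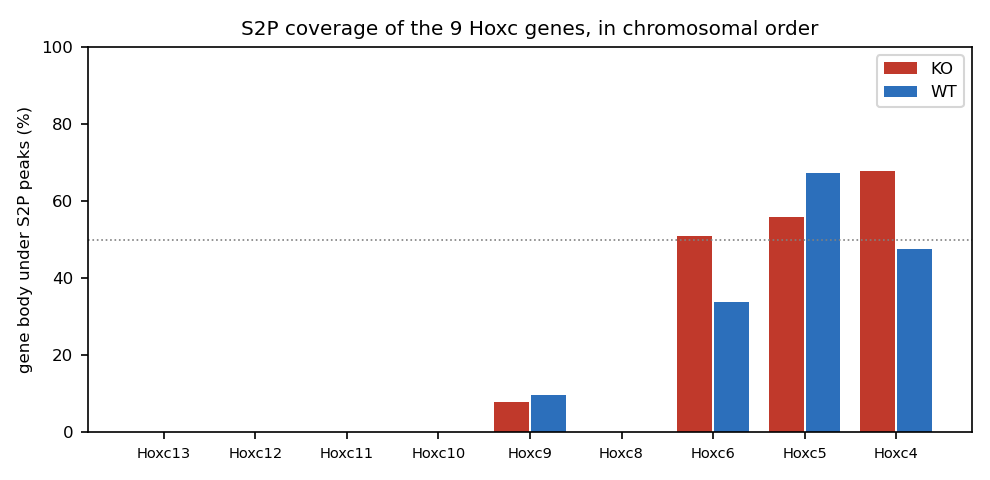
Percentage of each Hoxc gene lying under S2P peaks, in chromosomal order, with KO bars in red on the left and WT bars in blue on the right, and a dotted line at 50%. Hoxc6 (51.0% in KO, 33.9% in WT) and Hoxc4 (67.8% in KO, 47.6% in WT) stand higher in KO and Hoxc5 (56.0% in KO, 67.2% in WT) lower, while Hoxc10 to Hoxc13 and Hoxc8 are at 0%.

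Of the 34 non-coding genes within the spans, only Gm30528, which overlaps Hoxc4 and runs on beyond it, had S2P coverage, with 25.8% in KO and 19.9% in WT. It shares part of its length with Hoxc4, and the peaks cannot be assigned to one of them. Factor peaks lay in Hotair, Gm30528 and Hoxd3os1. Within Gm30528 beyond the Hoxc4 window, 3 GATA2 sites were listed in both genotypes, with 32 fragments in KO and 30 in WT, 58 in KO and 59 in WT, and 50 in KO and 36 in WT. The last of these had a GATA2 log2 ratio of 0.39 (−0.26 to 1.05). It also held a RUNX1 peak in both genotypes, with 36 fragments in KO (25.2 to 49.8) and 29 in WT (19.4 to 41.6). The RUNX1 log2 ratio was 0.29 (−0.46 to 1.05). None of the 6 miRNA genes, whose mature sequences are given above, lay under an S2P peak. No share over all non-coding or miRNA genes was computed, so these counts stand without a background. Mir615, inside the covered gene Hoxc5, was 85 bp from the nearest S2P peak in KO and 29 bp in WT.

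The genes around the clusters were described from a list of neighbours. Beside Hoxc, Hnrnpa1, a splicing regulator gene, was covered by S2P for 94.2% in KO and 97.2% in WT. Cbx5, which encodes a heterochromatin protein, was covered for 77.4% in KO and 59.2% in WT, and the DNA repair gene Smug1 for 20.5% in KO and 11.7% in WT. Calcoco1, on the Hoxc13 side, had none. Beside Hoxa, Hibadh had 18.9% in KO and 11.5% in WT, Skap2 had 0.278% and 0.0971%, and Evx1, a homeobox gene next to Hoxa13, and Snx10 had 0%. Beside Hoxd, Lnpk had 35.8% in KO and 33.5% in WT, Mtx2 had 20.9% and 20.2%, and the homeobox gene Evx2 had 0%. The Hoxb neighbours Skap1, Ttll6 and Calcoco2 had 0% in both, although each held GATA2 peaks. Evx1 and Evx2, the homeobox genes adjoining the clusters, had no factor peak either.

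The genes known to act with or on Hox genes gave these counts. As background, 61.0% of all protein-coding genes had GATA2 in KO and 56.6% in WT, 52.7% and 50.1% had RUNX1, and 16.2% and 15.8% were covered by S2P for at least 50%. Of 11 TALE cofactor genes, 10 had a GATA2 peak in KO and 7 in WT, 7 had RUNX1 in each, and 2 were covered by S2P for at least 50% in each. These were the repressor genes Tgif1 (66.3% in KO, 68.6% in WT) and Tgif2 (60.1% in KO, 66.4% in WT), followed by Pbx2 (17.8% in KO, 18.9% in WT) and Pknox1 (14.5% in KO, 9.92% in WT). Meis1 and Pbx3, partners known with Hox proteins in blood, had 0% in both. Of the 6 ParaHox genes, relatives of the Hox genes outside the clusters, none had S2P or RUNX1, and Cdx1 alone held a GATA2 peak, in both genotypes.

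Of 9 genes of the Trithorax and DOT1L side, 8 had GATA2 in each genotype, against 61.0% of all genes in KO and 56.6% in WT. All 9 had RUNX1 in each, against 52.7% and 50.1%, and 5 were covered for at least 50% in KO and 4 in WT, against 16.2% and 15.8%. Psip1, which tethers Kmt2a and menin to chromatin, had 89.4% in KO and 90.8% in WT. Ash2l had 84.8% in KO and 83.9% in WT, and Wdr5 had 72.2% in KO and 79.5% in WT, both core subunits of Kmt2 methyltransferase complexes. Rbbp5, of the same core, differed most, with 53.2% in KO and 38.4% in WT. Of 17 genes of the Polycomb side, 13 had GATA2 in KO and 12 in WT, 14 had RUNX1 in KO and 13 in WT, and 4 were covered for at least 50% in KO and 3 in WT, against the shares of all genes just given. Suz12, a core subunit of Polycomb repressive complex 2, had 93.9% in KO and 93.3% in WT. Ring1, a ubiquitin ligase of Polycomb repressive complex 1, had 88.1% in KO and 66.7% in WT, Mtf2, an accessory subunit of complex 2, had 66.1% and 50.3%, and Ezh2, its methyltransferase, had 58.8% and 43.1%. Bmi1 was lower in KO, with 18.4% in KO and 25.9% in WT. Over the lists the median coverage was 53.2% in KO and 43.0% in WT for the Trithorax and DOT1L side, 11.6% and 9.64% for the Polycomb side, and 0% for the Hox genes and for all protein-coding genes in both lists.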

How the data were processed

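The peak lists came from ChIP-seq of GATA2, RUNX1 and S2P in KO and WT G1ER cells. Per the labels' protocols, chromatin fragments averaged 500 bp, and 18 cycles of PCR and selection of 150 to 300 bp fragments followed. The submitters' processing notes name Bowtie2 2.2.1, MACS2 2.1.0 and the mouse build GRCm38 (mm10), without roles or settings. The authors deposited, for each peak, a score, a fold enrichment (a ratio to local background), a −log10 p, a −log10 q and a summit offset in bp. How the 2 S2P replicates were combined is not given in the sources used here, and total read depth is unknown.

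Summit fragments and local background were solved from the deposited fold and −log10 p under a Poisson model. All summits gave whole numbers with −log10 p within 0.005 in 5 lists, and 99.998% in the KO S2P list, which needed a scale of 0.961. The solution was tested on simulated data. Reads lacking molecular identifiers may be copies of one molecule. In bulk chromatin, occupancy in fewer cells and weaker occupancy per cell cannot be told apart.

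Genes and coordinates were taken from the RefSeq table of GRCm38.p6. A gene had a factor peak when a summit lay in it or within 5 kb of either end, S2P coverage was the percentage of the gene under peaks, and peaks were shared at an overlap of at least 1 bp. Densities cover each cluster with 5 kb on either side. No test of genotype was made. All Hox genes with a peak or coverage were named, as were, of each other list, the 3 genes with most coverage and those with the largest differences. The other genes of these lists that the text names (Meis1, Pbx3 and Ezh2) were chosen after their values were seen. The members and lists were chosen with earlier results of these data known. Alternatives changed the window, the overlap, the q limit, the coverage limit and the scaling. Python 3.11.15, numpy 2.4.6, pandas 2.3.3, scipy 1.17.1 and matplotlib 3.10.9 were used.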

Additional observations from a re-analysis of the deposited data

How the results depend on the processing

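Of 59 values recomputed under alternatives, 15 moved past the limits set for them (1.5 times for a count, the counting error for a ratio). The 6 log2 ratios among the 59 stayed above 0. The counts of genes with a factor peak depended on the window. With summits inside the gene alone, GATA2 was at 5 Hox genes in KO and 3 in WT, and RUNX1 at 3 in WT, and the WT GATA2 peaks numbered 7. With a window of 1 kb, GATA2 was at 5 genes in KO. With a window of 10 kb, GATA2 was at 13 genes in KO and 10 in WT, and RUNX1 at 8 in KO. When an overlap of 50% of both peaks was asked for, 5 RUNX1 peaks were shared in KO and 5 in WT, in place of 8. With S2P peaks of −log10 q of at least 5, 1 Hox gene was covered for at least 50% in KO in place of 3. With a coverage limit of 25%, 3 Hox genes were covered in WT, and with any coverage 4. The difference between KO and WT in that count, 3 against 1, was absent under each of these settings, with 1 gene in each genotype at the stricter q, 3 in each at 25% and 4 in each at any coverage. It stayed at 3 against 1 among genes of at least 2 kb. With the KO list cut to as many top peaks as the WT list, it also stayed at 3 against 1. By the deposited fold enrichment, the median log2 ratio of KO over WT at shared Hox peaks was 0.038 for RUNX1 in place of 0.27, and 0.27 for S2P in place of 0.09. With the median of all shared summits set to 0, the Hox medians were 0.19 for GATA2, 0.08 for RUNX1 and 0.03 for S2P. The cause of these shifts was not tested.

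No paired analysis was possible because the 2 S2P replicates of a genotype were deposited in 1 list and each factor had 1 list per genotype. For the same reason leaving out a replicate was not possible. Sites that missed the q limit of the lists could not be seen, whatever their fragment number.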
